A study of Mus musculus with 6 samples.

Results

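A set of 10 genes that handle pyruvate and lactate, Ldha, Ldhb, Slc16a3, Slc16a1, Mpc1, Mpc2, Pdha1, Pdk2, Pdk4 and Pdp1, were followed in quadriceps muscle of mice aged 12 weeks, by total RNA-seq after ribosomal RNA removal. They were matched by symbol, all 10 were found among the 53947 genes of the deposited tables, and all 10 were among the 13576 genes that passed the filter on low counts. There were 3 libraries from wild-type mice (WT) and 3 from HSA-LR mice, a model of myotonic dystrophy type 1 in which a human skeletal actin gene with 220 CTG repeats is transcribed, so that RNA with long CUG tracts binds the MBNL splicing factors. The transgene is driven by the promoter of that actin gene and is thus expressed in skeletal muscle fibres and not in the other cells of the tissue. The labels name no treatment, the strain and sex of the animals and the relation of the WT mice to the HSA-LR mice are not given in the sources used here, and neither is it stated that each library came from a different animal. The p-values thus rest on the spread among these libraries alone.

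Pyruvate made by glycolysis has several fates in a muscle fibre. Lactate dehydrogenase interconverts it with lactate, which crosses the plasma membrane through monocarboxylate transporters, while the mitochondrial pyruvate carrier takes it into mitochondria, where the pyruvate dehydrogenase complex turns it into acetyl-CoA. Kinases (PDKs) phosphorylate this complex and shut it down, and phosphatases reactivate it. Fast glycolytic fibres are known for lactate production and export, and slow oxidative fibres and heart for lactate uptake and oxidation.

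Of the 10 genes, Slc16a3, the lactate exporter MCT4 of glycolytic fibres, and Pdk2, a pyruvate dehydrogenase kinase, were lower in HSA-LR, at 53.4% and 54.9% of the WT level, and none was called higher. Pdk4, the kinase induced by fasting, had the largest difference, at 35.3% of WT, but differed among the WT libraries and was not called. Pdha1, which encodes the E1 alpha subunit of the complex, stood at 69.7% of WT without being called. The mitochondrial pyruvate carrier genes Mpc1 and Mpc2 instead stood slightly above WT in CPM, also uncalled. The lactate dehydrogenase genes, the transporter gene Slc16a1 and the phosphatase gene Pdp1 overlapped between the groups.

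Levels are given in CPM, counts scaled to a common total on library sizes scaled by TMM (a factor that makes the bulk of genes comparable between libraries), for replicates 1, 2 and 3 in that order. A log2 fold change (log2FC) is HSA-LR over WT from edgeR's quasi-likelihood fit over all 13576 genes, with its standard error (SE), and a gene was called where its p, adjusted over all of them by Benjamini-Hochberg, was below 0.05. By this rule 11.8% of all genes tested were called, 4.28% higher and 7.48% lower in HSA-LR, against 0 and 2 of the 10 genes here. Under upper-quartile scaling the split over all genes was 728 higher and 781 lower, against 581 and 1016, and the same 2 of the 10 genes were called lower. At an unadjusted p below 0.05, edgeR gave 0 of the 10 higher and 4 lower, and the share over all genes by this rule was not counted. At the adjusted threshold, DESeq2 called 0 of the 10 higher and 4 lower, and limma-voom 0 higher and 2 lower. DESeq2 called 983 higher and 1243 lower of 14287 genes, and limma-voom 455 and 1019 of 13576. The median log2 fold change of the 10 was -0.32, beside 0.04 over all genes tested, and 8 of the 10 were negative.

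The libraries held 11468959 to 15023710 counts, at which 3 counts are 0.2 to 0.262 CPM. The 7SL and 7SK RNAs took 14.2% to 15.5% of the counts in WT and 44.0%, 18.9% and 24.0% in HSA-LR. The 6 skeletal muscle markers summed to 190746 to 217861 CPM in WT and to 65733, 145717 and 112132 CPM in HSA-LR. Ttn was the largest part of each sum, at 125527 to 147179 CPM in WT and 29657, 79682 and 56103 CPM in HSA-LR. Ttn, Ckm and Neb lay below WT in all HSA-LR libraries, Mb lay above, and Acta1 and Des overlapped. Of these 6, edgeR called none (at an unadjusted p below 0.05, 1 higher and 2 lower), DESeq2 called 1 higher and 2 lower, and limma-voom 2 lower. Within HSA-LR, the order of the libraries by the sum of these markers was also the order by Ldha, Pdha1, Pdk2 and Slc16a3, with replicate 1 lowest and replicate 2 highest. The HSA-LR transgene is itself a skeletal actin gene, and the part of its reads in the Acta1 counts was not tested. The 10 fast fibre markers summed to 100749 to 114156 CPM in WT and 53278 to 90013 CPM in HSA-LR, all with a negative log2 fold change (median -0.36), of which edgeR and limma-voom called 1 lower, Atp2a1 in edgeR, and DESeq2 called 3 lower. Of the 6 macrophage markers, edgeR called Adgre1, Csf1r, Cd68 and Cd163 higher (sums of 122.8 to 133.5 CPM against 181 to 527.4 CPM), and of the 6 fibroblast markers Col3a1 (1502 to 1748 CPM against 1914 to 6236 CPM). None of the 7 endothelial (149.9 to 169.9 CPM against 140.9 to 216.9 CPM), 5 erythroid (355.4 to 600.9 CPM against 389.4 to 2046 CPM), 4 tested Schwann cell (28.25 to 33.58 CPM against 32.35 to 68.3 CPM) or 3 tested smooth muscle markers (47.67 to 59.93 CPM against 44.13 to 67.83 CPM) was called by edgeR (at an unadjusted p below 0.05 there was 1, the Schwann cell marker Pmp22, which was higher). DESeq2 called 1 Schwann cell marker higher and none of the other 3 lists. No marker of any list was at 0 in all libraries. In bulk tissue, fewer cells of a type and less RNA per cell cannot be told apart, and the part of these shifts in the results below was not tested. With the 7SL and 7SK share of each library added to the fit as a covariate, the log2 fold change of Pdk2 was -0.60 (adjusted p = 0.0349 in edgeR) and that of Slc16a3 was -0.67 (adjusted p = 0.0442 in edgeR). This share was higher in every HSA-LR library than in any WT library, so the fit cannot fully separate it from genotype. The share is also no measure of the cell types above.

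**Figure D1:**
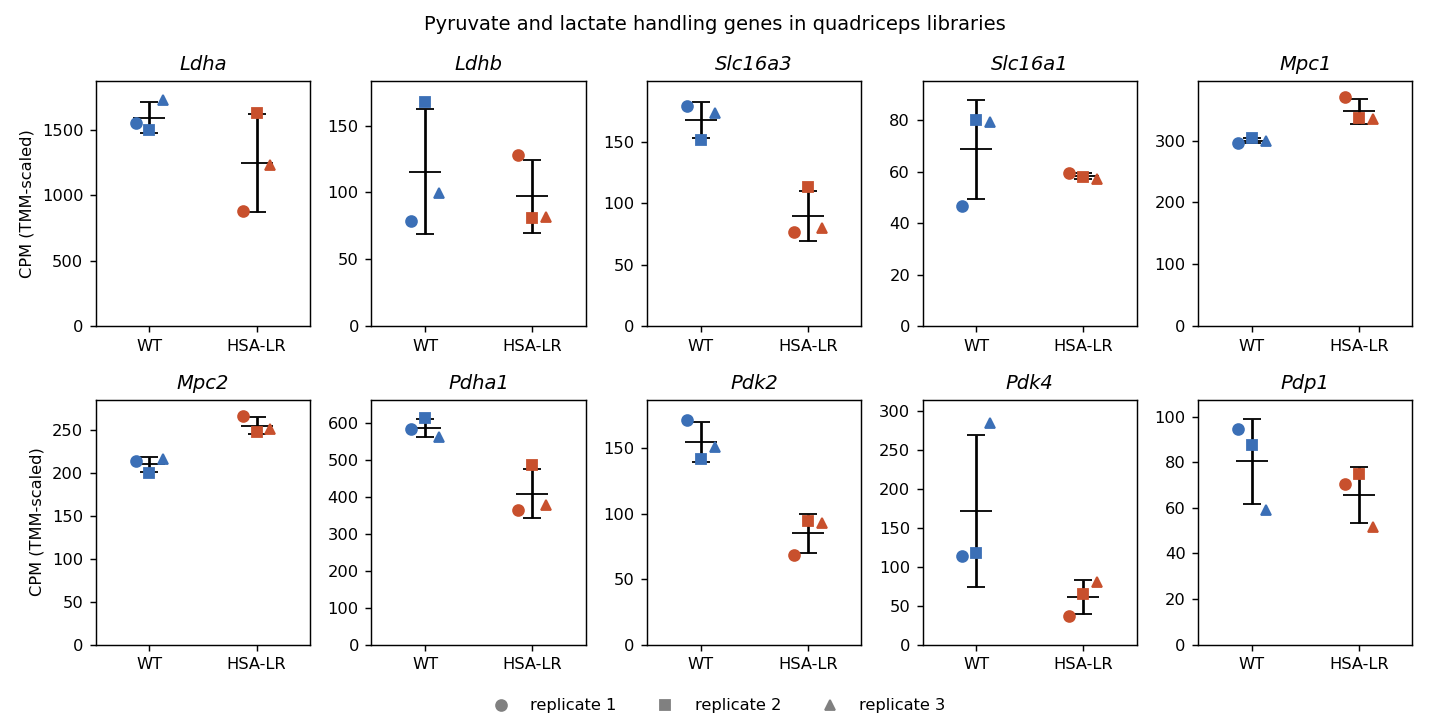
Level of each of the 10 genes in CPM (linear axis from 0) in the 3 WT and 3 HSA-LR libraries, with the group mean (long bar) and SD (error bar); symbols give the replicate number. The groups are separate for Slc16a3, Pdk2, Pdk4 and Pdha1, with HSA-LR below, and for Mpc1 and Mpc2, with HSA-LR above.

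The 3 genes with the largest differences are shown with the 250 bases just upstream of the start of their canonical transcript (GENCODE M39, GRCm39), since regulators of this pathway are taken up below. The order is 5′ to 3′ on the strand of the gene, and capitals mark matches, on either strand, to 4 short motifs, AAGGTCA (the half-site of ERR nuclear receptors), GTAAACA (FOXO factors), CACGTG (the E-box) and ACGTG (the core of the HIF site, also contained in CACGTG). The Pdk2 window is chr11:94932241-94932490 on the minus strand, the Pdk4 window chr6:5496331-5496580 on the minus strand and the Slc16a3 window chr11:120839291-120839540 on the plus strand.
Pdk2: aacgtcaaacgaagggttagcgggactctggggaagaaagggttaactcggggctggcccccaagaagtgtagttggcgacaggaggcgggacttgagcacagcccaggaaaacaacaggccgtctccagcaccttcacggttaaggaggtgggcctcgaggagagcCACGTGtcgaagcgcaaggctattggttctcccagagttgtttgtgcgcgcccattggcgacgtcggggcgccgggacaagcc
Pdk4: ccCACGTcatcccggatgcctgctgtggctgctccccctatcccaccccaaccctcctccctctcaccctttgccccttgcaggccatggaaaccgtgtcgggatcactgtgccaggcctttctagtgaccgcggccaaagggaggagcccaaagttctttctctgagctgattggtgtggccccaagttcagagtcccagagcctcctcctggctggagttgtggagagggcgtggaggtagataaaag
Slc16a3: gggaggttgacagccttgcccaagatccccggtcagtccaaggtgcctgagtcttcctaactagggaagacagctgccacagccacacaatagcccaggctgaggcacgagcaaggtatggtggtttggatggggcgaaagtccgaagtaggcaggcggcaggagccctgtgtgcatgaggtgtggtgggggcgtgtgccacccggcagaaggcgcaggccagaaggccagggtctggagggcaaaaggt
Pdk2 held 1 E-box, Pdk4 1 match to ACGTG alone, at its far end, and Slc16a3 no match. Among the 10 genes the E-box was found upstream of Ldha, Pdk2 and Slc16a1, and in 7.72% of the windows of 12298 tested protein coding genes. ACGTG was found upstream of these 3 genes and Pdk4, and in 20.8% of all windows. AAGGTCA and GTAAACA were in none of the 10 windows and in 3.2% and 2.32% of all. These letter matches are descriptions of the windows and were not tested for binding.

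Per transcript length, in TPM (transcript abundance corrected for length), the 10 genes in WT ran from Ldha at 672.9 ± 20.9 TPM (SD, n = 3) down to Slc16a1 at 9.69 ± 2.79 TPM. Mpc1 followed Ldha at 291.3 ± 20.7 TPM and Mpc2 at 182.1 ± 4.85 TPM, and these leading genes did not overlap with their neighbours. Pdha1 (132.9 ± 12.3 TPM), Ldhb (92.6 ± 39.2 TPM) and Slc16a3 (60.5 ± 4.85 TPM) came next, where Ldhb overlapped with both of the others. Pdk2 (47.7 ± 2.97 TPM) lay below Slc16a3 in all WT libraries and overlapped with Pdk4 (31.1 ± 16.0 TPM), which in turn overlapped with Pdp1 (18.7 ± 5.15 TPM). WT quadriceps held more RNA of the carrier than of any kinase of the complex. For the groups, CPM was the main measure and TPM entered alternative fits only. This was because the median log2 difference over all tested genes was -0.46 on the log2(TPM + 0.1) scale. The sum of TPM is the same in every library.

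Ldha (chr7:46490899-46505061, plus strand, 8 exons in its canonical transcript) encodes the muscle-type M subunit of lactate dehydrogenase. It stood at 1551, 1496 and 1723 CPM in WT and at 879.6, 1629 and 1229 CPM in HSA-LR. The groups overlapped through HSA-LR replicate 2, and the lowest value was that of HSA-LR replicate 1. The log2 fold change was -0.35 ± 0.23 (SE; adjusted p = 0.320 in edgeR), and without HSA-LR replicate 2 it was -0.60 (adjusted p = 0.0439 in edgeR). Without HSA-LR replicate 1 it was -0.15 (adjusted p = 0.545 in edgeR). With the share of 7SL and 7SK as a covariate it turned to 0.06 (adjusted p = 0.851 in edgeR).

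Ldhb (chr6:142435672-142454586, minus strand, 8 exons) encodes the H subunit, typical of heart and slow fibres. It stood at 78.79, 168.1 and 99.26 CPM in WT and at 128.4, 80.68 and 81.91 CPM in HSA-LR. The groups overlapped fully, with 1 high library in each, WT replicate 2 and HSA-LR replicate 1 (log2FC -0.25 ± 0.31, adjusted p = 0.602 in edgeR). Without WT replicate 2 it turned to 0.12 (adjusted p = 0.805 in edgeR). The same libraries were high for the 8 slow fibre markers, whose CPM summed to 108.4, 1594 and 128.4 in WT and 1130, 287.9 and 192.3 in HSA-LR, with none of the 8 called. Myh7, the slow myosin heavy chain, ranged from 5.21 to 519.8 CPM in WT alone. The part of slow fibre content in Ldhb was not tested.

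Reads of Ldhb were also divided with a processed pseudogene, Ldhb-ps, which matches its transcript at 98% of 1002 bases and was given 119.5 to 321.1 counts per library. With these reads added, the log2 fold change of Ldhb was -0.28 (adjusted p = 0.539 in edgeR). The 3 Ldha pseudogenes received at most 2 counts in any library, and the Ldha and Ldhb transcripts are 74.1% identical over 892 aligned bases.

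Ldha made up 83.0% to 91.2% of the TPM of the lactate dehydrogenase family in WT and 77.0% to 92.4% in HSA-LR, Ldhb nearly all of the rest, and Ldhc, the testis form, was at 0 in all libraries. The count ratio of Ldha to Ldhb within a library was 19.7, 8.9 and 17.4 in WT and 6.85, 20.2 and 15 in HSA-LR. It was lowest in the libraries high in slow fibre markers, and the groups overlapped (log2 difference -0.18, p = 0.7 by a two-sided exact permutation test). In this test the smallest p that 3 against 3 allows is 0.1, and over the 5 ratios of members tested, adjusted p was 0.5 to 0.7.

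**Figure D2:**
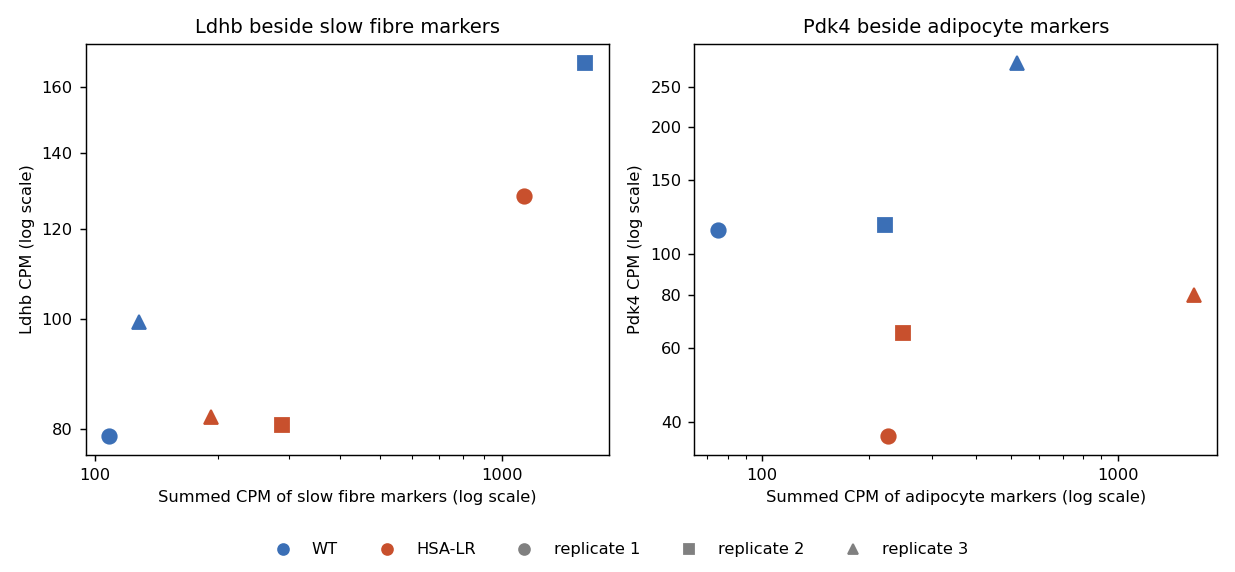
Left, Ldhb against the summed CPM of 8 slow fibre markers; right, Pdk4 against the summed CPM of 7 adipocyte markers, 1 point per library, all axes logarithmic, colour for the group and symbol for the replicate. Ldhb was highest in WT replicate 2 and HSA-LR replicate 1, the libraries richest in slow fibre markers, and Pdk4 followed the order of the adipocyte sum within each group while lying lower in HSA-LR.

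Slc16a3 (chr11:120838846-120851694, plus strand, 6 exons), the low-affinity exporter MCT4, fell in HSA-LR. It stood at 179.2, 151.4 and 173.7 CPM in WT and at 76.29, 113.4 and 79.56 CPM in HSA-LR. All HSA-LR libraries lay below all WT libraries, and replicate 2 was the highest of the 3 HSA-LR libraries. The log2 fold change was -0.91 ± 0.18 (SE; adjusted p = 0.0176 in edgeR). The call held under 17 of 21 alternative settings, and was lost on leaving out WT replicate 1 (adjusted p = 0.102 in edgeR), WT replicate 2 (0.0643), WT replicate 3 (0.0852) or HSA-LR replicate 3 (0.0843). In those smaller fits the calls over all genes dropped to between 42 and 50 higher and 124 and 168 lower.

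Slc16a1 (chr3:104545811-104565780, plus strand, 5 exons), the high-affinity transporter MCT1 that serves lactate uptake in oxidative fibres, stood at 46.61, 80.14 and 79.26 CPM in WT and at 59.55, 58.09 and 57.07 CPM in HSA-LR. The HSA-LR libraries lay close together, inside the range of WT, whose replicate 1 was low (log2FC -0.24 ± 0.20, adjusted p = 0.438 in edgeR). Slc16a3 took 82.4% to 90.6% of the TPM of the lactate-carrying family members Slc16a1, Slc16a3, Slc16a7 and Slc16a8 in WT and 72.7% to 81.9% in HSA-LR, and Slc16a1 9.0% to 17.1% against 17.2% to 22.7%. These shares did not overlap between the groups for either gene, by a margin of less than 1 percentage point, and were not tested. As counts, the ratio of Slc16a3 to Slc16a1 was 3.85, 1.89 and 2.19 in WT and 1.28, 1.95 and 1.39 in HSA-LR, which overlapped (log2 difference -0.73, p = 0.2 by a two-sided exact permutation test).

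**Figure D3:**
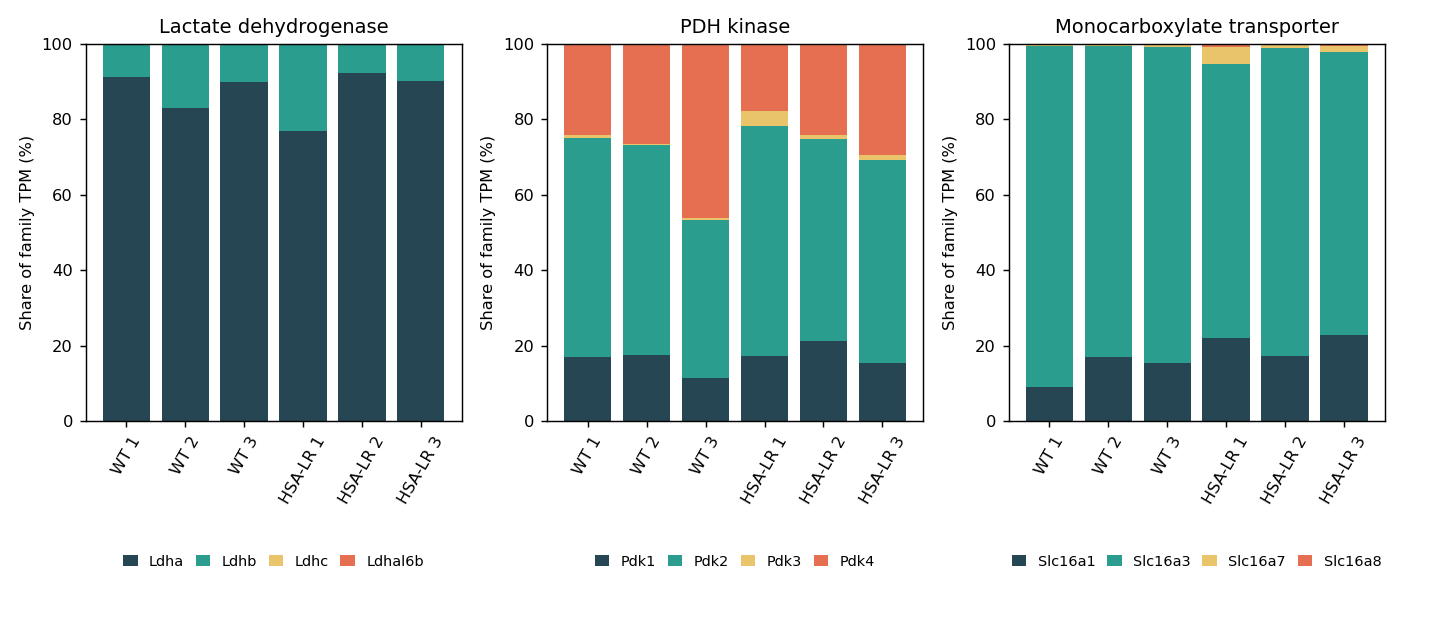
Share of each gene in the summed TPM of its family (%, axis from 0 to 100) in each library, for lactate dehydrogenases, pyruvate dehydrogenase (PDH) kinases and lactate-carrying monocarboxylate transporters. Ldha, Pdk2 and Slc16a3 were the main members except in WT replicate 3, where Pdk4 (46.2%) exceeded Pdk2 (41.9%), and the Slc16a3 share was 82.4% or more in WT and 81.9% or less in HSA-LR.

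Mpc1 (chr17:8501736-8516498, plus strand, 6 exons) and Mpc2 (chr1:165287125-165308785, plus strand, 5 exons) encode the subunits of the mitochondrial pyruvate carrier, which works as their heterodimer. Mpc1 stood at 295.7, 303.8 and 298.8 CPM in WT and at 370.2, 336.9 and 334.9 CPM in HSA-LR. Mpc2 stood at 213.5, 199.8 and 216.8 CPM in WT and at 266.2, 247.3 and 251.6 CPM in HSA-LR. For both genes all HSA-LR libraries lay above all WT libraries, as was the case for 17.8% of all genes tested, and HSA-LR replicate 1 was the highest.

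The differences were small and were not called, with a log2 fold change of 0.21 ± 0.14 (SE; adjusted p = 0.304 in edgeR) for Mpc1 and 0.28 ± 0.13 (SE; adjusted p = 0.175 in edgeR) for Mpc2, and both signs turned after removal of each library's trend on transcript length (-0.11 and -0.02). On log2(TPM + 0.1) they were -0.39 and -0.33, above the median of -0.46 over all genes, and on TPM rescaled over protein coding genes 0.25 and 0.31, beside a median of 0.13. The ratio of the carrier genes was 1.38, 1.52 and 1.38 counts of Mpc1 per count of Mpc2 in WT and 1.39, 1.36 and 1.33 in HSA-LR with overlap (log2 difference -0.07, p = 0.3 by a two-sided exact permutation test, in which p cannot fall below 0.1). Some Mpc1 reads were divided with the pseudogene Mpc1-ps, which matches Mpc1 fully over 261 bases and was given between 174.8 and 196.4 counts per WT library and 140.6, 129.9 and 0 counts per HSA-LR library. With these added, the log2 fold change of Mpc1 was 0.19 (adjusted p = 0.378 in edgeR).

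Pdha1 (chrX:158904237-158921426, minus strand, 11 exons), the somatic E1 alpha subunit that the kinases phosphorylate, stood at 586.1, 613.7 and 564.1 CPM in WT and at 364.1, 487 and 378.1 CPM in HSA-LR. All HSA-LR libraries lay below WT, with replicate 2 nearest to it. The log2 fold change was -0.52 ± 0.17 (SE; adjusted p = 0.0696 in edgeR). DESeq2 called it (adjusted p = 0.0119) and on leaving out HSA-LR replicate 2 (log2FC -0.67, adjusted p = 0.00834 in edgeR), and under no other alternative. For this X-linked gene the sex of the animals matters, and all 6 libraries carried Y-linked RNA (Ddx3y at 43.2 to 62.8 CPM), with Xist at 0 to 0.07 CPM. Ddx3y, Eif2s3y, Kdm5d and Uty, tested in the same fit, were not called.

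Pdk2 (chr11:94914929-94932242, minus strand, 11 exons), the widely expressed kinase that is sensitive to the pyruvate and NADH levels of the cell, fell in HSA-LR. It stood at 171.4, 141.5 and 150.9 CPM in WT and at 68.02, 94.07 and 92.46 CPM in HSA-LR. The groups were clearly apart, and HSA-LR replicate 1 was the lowest. The log2 fold change was -0.86 ± 0.16 (SE; adjusted p = 0.0157 in edgeR). As for Slc16a3, the call held under 17 of 21 alternative settings and was lost on leaving out WT replicate 1 (adjusted p = 0.099 in edgeR), WT replicate 2 (0.0626), WT replicate 3 (0.0755) or HSA-LR replicate 3 (0.0669).

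Pdk4 (chr6:5483097-5496339, minus strand, 11 exons), the kinase that rises in muscle on fasting and with fatty acid supply, stood at 114.2, 117.2 and 284.8 CPM in WT and at 37.0, 65.02 and 80.03 CPM in HSA-LR. All HSA-LR libraries lay below all WT libraries, but WT replicate 3 was far above the other WT libraries. The log2 fold change was -1.50 ± 0.45 (SE; unadjusted p = 0.0128, adjusted p = 0.0732 in edgeR). Without WT replicate 3 it was -0.92 (adjusted p = 0.137 in edgeR). DESeq2 called it (adjusted p = 0.0478), as did the fit with a replicate block. It was also called by limma on log2(TPM + 0.1) and log2(TPM + 1), where the median over all tested genes was -0.46 and -0.28. On TPM rescaled over protein coding genes it was not called (adjusted p = 0.0968 in limma).

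Within each group Pdk4 was lowest in replicate 1 and highest in replicate 3. So was the summed CPM of the 7 adipocyte markers, at 75.11, 221.6 and 519.6 in WT and 225.2, 248.9 and 1636 in HSA-LR. Fabp4, the most abundant of these markers, was lowest in replicate 2 of HSA-LR (198.9, 143.9 and 815.4 CPM). None of the 7 was called, and all had a positive log2 fold change (median 1.49). The part of fat tissue or of the feeding state, for which the sources used here give nothing, was not tested. Counts per library gave a Pdk4 to Pdk2 ratio of 0.666, 0.829 and 1.89 in WT and 0.544, 0.691 and 0.866 in HSA-LR, which overlapped (log2 difference -0.56, p = 0.5 by a two-sided exact permutation test). By TPM, Pdk2 held 41.9% to 58.1% of the kinase family in WT and 53.6% to 61.0% in HSA-LR, and Pdk4 24.2% to 46.2% and 17.9% to 29.4%.

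Pdp1 (chr4:11957712-11966468, minus strand, 2 exons), the calcium-activated catalytic subunit of pyruvate dehydrogenase phosphatase and the counterpart of the kinases, stood at 94.42, 87.56 and 59.19 CPM in WT and at 70.58, 74.79 and 51.77 CPM in HSA-LR. Replicate 3 was the lowest in both groups, and the groups overlapped (log2FC -0.29 ± 0.21, adjusted p = 0.355 in edgeR). Pdp1 held 93.0% to 98.4% of the TPM of Pdp1 and Pdp2 together. The Pdk4 to Pdp1 ratio was 1.21, 1.34 and 4.81 in WT and 0.524, 0.870 and 1.55 in HSA-LR, with overlap (log2 difference -1.16, p = 0.3 by a two-sided exact permutation test).

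Taking the 10 genes as a list, 4 (Slc16a3, Pdk2, Pdk4 and Pdha1) had all HSA-LR libraries below all WT libraries, beside 20.0% of all genes tested. Another 2 (Mpc1 and Mpc2) had them above in CPM, beside 17.8% of all genes tested. The length of the transcripts in use, as RSEM weighted it by abundance, overlapped between the groups for all 10, and was 4426 bases in every library for Slc16a1, while 12.8% of the 11337 genes whose length varied had groups without overlap. The plot of log2 fold changes under all alternatives shows Pdk2, Slc16a3, Pdk4, Pdha1, Pdp1 and Slc16a1 below 0 throughout.

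**Figure D4:**
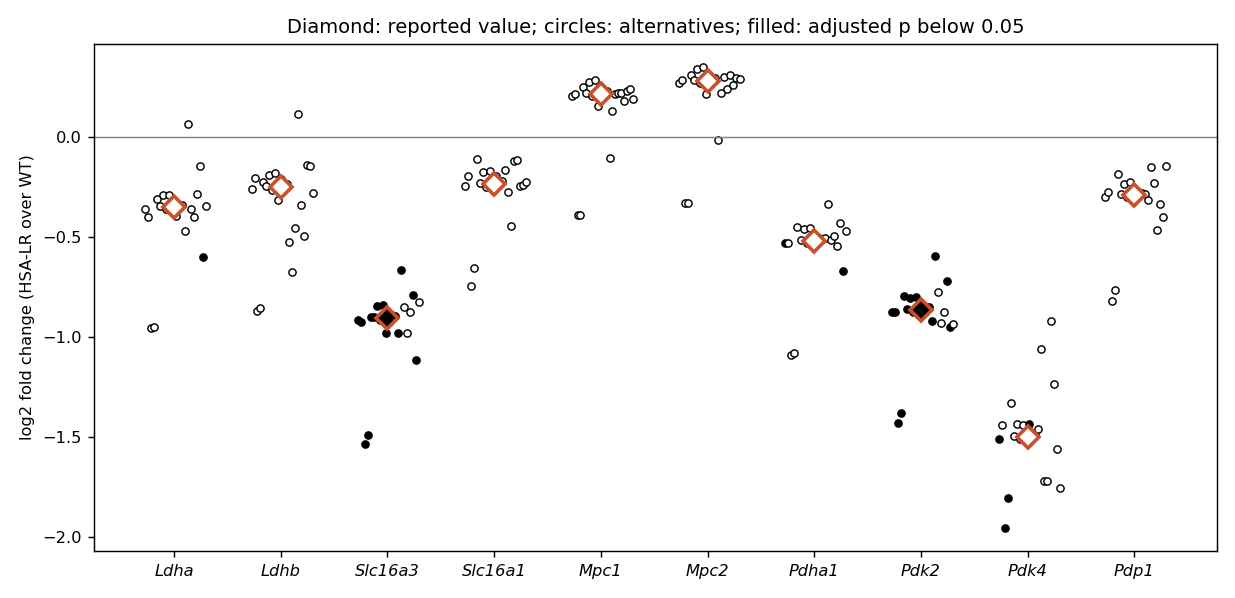
Log2 fold change (HSA-LR over WT) of each of the 10 genes as reported (diamond) and under each alternative (circles); filled symbols have an adjusted p below 0.05. Slc16a3 ranges from -1.54 to -0.67 and Pdk2 from -1.43 to -0.60 with most symbols filled, and Pdk4 from -1.95 to -0.92 with few filled. Mpc1 and Mpc2 lie above 0 except on unrescaled TPM, where the median over all tested genes was below 0, and after removal of the length trend.

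Of 34 further genes of pyruvate and lactate metabolism, 28 passed the filter, of which 0 were called higher and 4 lower. Over all genes tested, the shares were 4.28% higher and 7.48% lower. The median log2 fold change of the 28 was -0.01, beside 0.04 over all genes tested. At an unadjusted p below 0.05, edgeR gave 4 of the 28 higher and 6 lower, and the share over all genes by this rule was not counted. At the adjusted threshold, DESeq2 and limma-voom each called 0 higher and 4 lower. Over all genes, DESeq2 called 983 higher and 1243 lower of 14287, and limma-voom 455 and 1019 of 13576. The largest difference was that of Me1, cytosolic malic enzyme, which makes pyruvate and NADPH from malate. It stood at 100.1, 82.2 and 97.78 CPM in WT and at 17.12, 33.24 and 29.01 CPM in HSA-LR. All HSA-LR libraries were far below WT, and the call held under all 21 alternatives (log2FC -1.82 ± 0.23, adjusted p = 0.00521 in edgeR).

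The other 3 genes called lower also bear on the fate of mitochondrial pyruvate. Pdpr, the regulatory subunit of the phosphatase, stood at 158.4, 140.1 and 150 CPM in WT and at 71.54, 95.68 and 71.17 CPM in HSA-LR (log2FC -0.91 ± 0.16, adjusted p = 0.0111 in edgeR). Gpt2, the mitochondrial alanine transaminase, which interconverts pyruvate and alanine, stood at 217.2, 193.2 and 223.4 CPM in WT and at 87.14, 144 and 112.9 CPM in HSA-LR (log2FC -0.88 ± 0.19, adjusted p = 0.023 in edgeR). Pdk1, another kinase of the complex, stood at 65.14, 73.85 and 67.74 CPM in WT and at 34.15, 54.29 and 39.68 CPM in HSA-LR (log2FC -0.69 ± 0.18, adjusted p = 0.0397 in edgeR). In all 3 the groups were apart and HSA-LR replicate 2 was nearest to WT, and their calls held under 16, 16 and 12 of the 21 alternatives. All 3 calls were lost on leaving out any 1 WT library or HSA-LR replicate 3, where adjusted p in edgeR ran from 0.056 to 0.077 for Pdpr, from 0.0794 to 0.113 for Gpt2 and from 0.125 to 0.146 for Pdk1. With the share of 7SL and 7SK as a covariate, Gpt2 (adjusted p = 0.0511 in edgeR) and Pdk1 (adjusted p = 0.183 in edgeR) were not called.

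The uncalled genes of highest TPM on the list were Pkm, the pyruvate kinase of muscle, Bsg, the chaperone that brings MCT1 and MCT4 to the membrane, and Pdhb and Dlat, which encode the E1 beta and E2 subunits of the complex. Pkm stood at 2557 to 2610 CPM in WT and at 1362, 2449 and 1900 CPM in HSA-LR (log2FC -0.44 ± 0.23, adjusted p = 0.211 in edgeR). Bsg overlapped between the groups (438.9 to 484.8 CPM against 425.7 to 629 CPM, log2FC 0.23 ± 0.18, adjusted p = 0.391 in edgeR), while Slc16a3, which encodes a partner, fell. On log2(TPM + 0.1) the value for Bsg was -0.35, above the median of -0.46 over all genes, and on TPM rescaled over protein coding genes it was 0.29. Pdhb overlapped as well (176 to 200.5 CPM against 153.8 to 209.7 CPM, log2FC -0.06 ± 0.15, adjusted p = 0.804 in edgeR). Dlat stood at 165.1 to 177.7 CPM in WT and 112.2 to 160.2 CPM in HSA-LR (log2FC -0.34 ± 0.16, adjusted p = 0.168 in edgeR). Of the 6 genes below the filter, Pdha2, Ldhc and Pklr, forms of testis, testis and liver, were at 0 in every library, and Ldhal6b, Slc16a8 and Slc16a13 were at no more than 0.67 CPM in any.

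**Figure D5:**
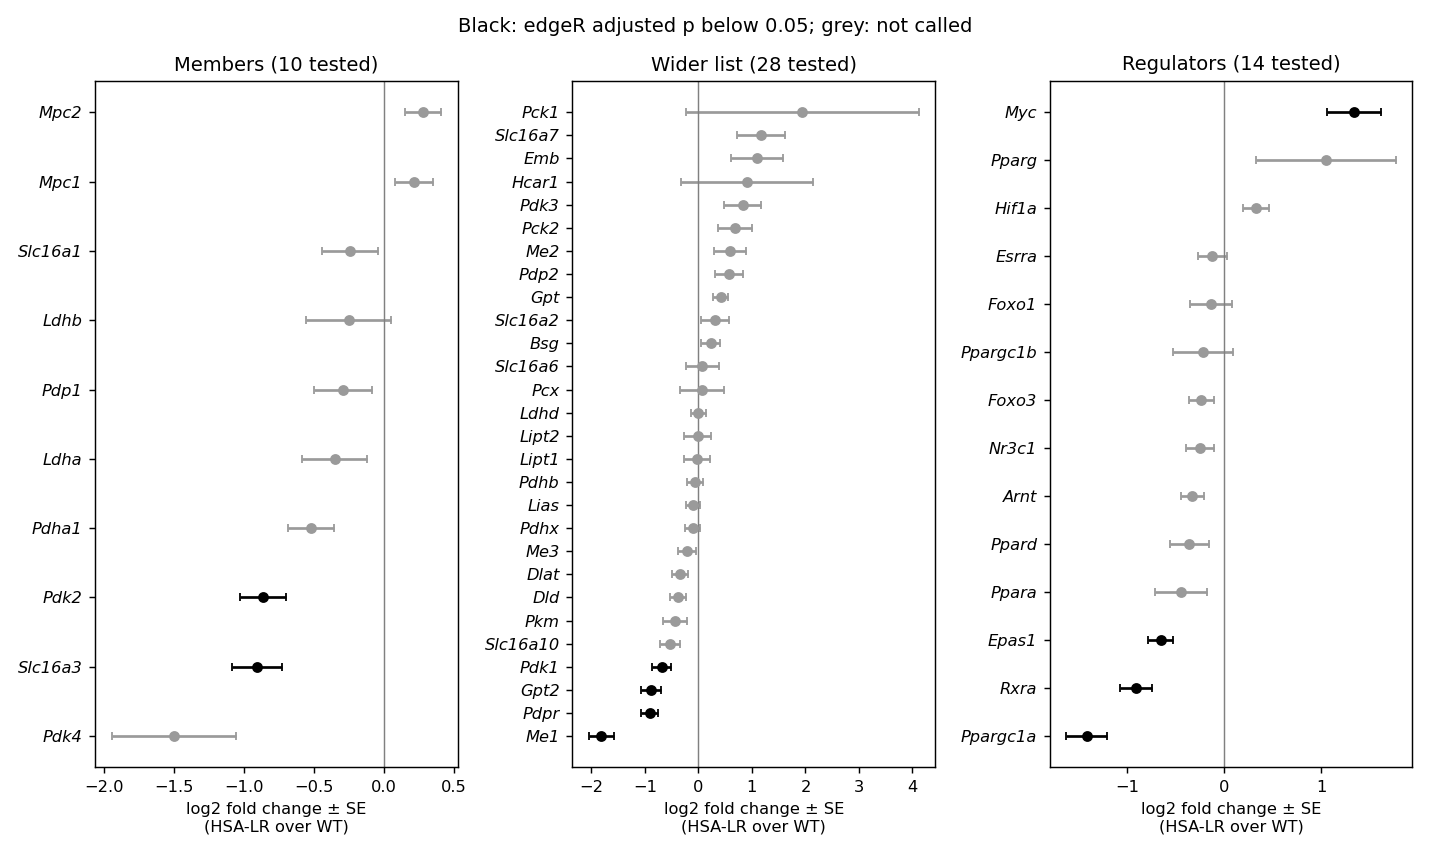
Log2 fold change (HSA-LR over WT) with its SE for the 10 genes, the 28 tested genes of the wider list and 14 regulators, each panel sorted and with its own axis; black marks an edgeR adjusted p below 0.05. Slc16a3 and Pdk2 on the first panel, Me1, Pdpr, Gpt2 and Pdk1 on the second and Ppargc1a, Rxra and Epas1 on the third were called lower, and Myc was the 1 gene called higher.

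The 14 regulators on a list of factors known to act on these genes were all tested, of which 1 was called higher and 3 lower (median log2 fold change -0.24). Over all genes tested, 4.28% were called higher and 7.48% lower. Ppargc1a, the coactivator PGC-1 alpha that raises oxidative genes and Pdk4, had the largest fall, with 44.06, 66.57 and 71.16 CPM in WT and 24.54, 25.41 and 18.26 CPM in HSA-LR (log2FC -1.42 ± 0.21, adjusted p = 0.00711 in edgeR). Epas1, which encodes the hypoxia-inducible factor HIF-2 alpha, stood at 94.07, 96.9 and 93.02 CPM in WT and at 57.27, 56.88 and 66.4 CPM in HSA-LR (log2FC -0.65 ± 0.13, adjusted p = 0.0165 in edgeR). Rxra, the partner of PPAR receptors, fell (log2FC -0.91 ± 0.17, adjusted p = 0.0143 in edgeR), and Myc, a factor that binds E-boxes, rose from a low level, 1.46 to 1.71 CPM in WT to 3.62 to 4.50 CPM in HSA-LR (log2FC 1.34 ± 0.28, adjusted p = 0.0207 in edgeR). The Epas1 call held under 13 of 21 alternatives and was also lost with a replicate block (adjusted p = 0.0518 in edgeR) and in the 3 limma fits on TPM (adjusted p from 0.0566 to 0.0981). The Myc call held under 13 of 20 and was also lost with a replicate block (adjusted p = 0.052 in edgeR) and on log2(TPM + 0.1) and log2(TPM + 1) (adjusted p = 0.211 and 0.14 in limma). Without HSA-LR replicate 3 none of these 4 was called (adjusted p in edgeR from 0.0527 to 0.0778), and without any 1 WT library only Ppargc1a of the 4 was. The 2 uncalled regulators of highest TPM overlapped between the groups, Esrra, the receptor ERR alpha (log2FC -0.12 ± 0.15, adjusted p = 0.613 in edgeR), and Nr3c1, the glucocorticoid receptor that raises Pdk4 (log2FC -0.24 ± 0.14, adjusted p = 0.268 in edgeR).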

How the data were processed

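Total RNA from quadriceps was sequenced in 3 WT and 3 HSA-LR samples, grouped by the genotype in their titles. RSEM 1.3.1 and Bowtie2 on GRCm39 are named in the submitters' processing notes, and the annotation release and strand setting are not given in the sources used here. The authors deposited expected counts, in which RSEM divides reads shared by several genes between them. The deposited TPM values are the authors' counts per effective length, brought to the same sum in every library. The deposited length columns were used for the length checks and an offset, and the FPKM column deposited by the authors was not used.

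Expected counts were rounded to whole numbers, filtered (filterByExpr), normalised by TMM and put through the quasi-likelihood F test of edgeR in its robust form, with group as the only term (edgeR 4.0.16, limma 3.58.1, R 4.3.3), with Benjamini-Hochberg adjustment over 13576 genes. The test was not taken from the study, whose text covers the processing of its small RNA libraries. For an SE, the size of the log2 fold change was divided by the root of F. Symbols came from GENCODE M39 for 53400 of 53947 genes (98.99%). Ratios within libraries were tested by two-sided exact permutation. The between-library coefficient of variation was 0.231, and library totals set a counting error only, since reads carried no molecular identifiers. Every pair of replicates differed by more than sampling noise. Chi-square was 9.07 to 10.67 times its degrees of freedom for WT pairs. For HSA-LR pairs it was 177.2 times (replicates 1 and 2), 112.8 times (1 and 3) and 27.81 times (2 and 3). The procedure was tested on simulated data.

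The members and gene lists were chosen with earlier results of these data known. Named were all members, every called gene of the wider and regulator lists, and their uncalled genes of highest mean TPM (4 and 2). As alternatives, tests were run with limma-voom, with DESeq2 1.42.0, with limma-trend on log2(TPM + 0.1), on log2(TPM + 1) and on TPM rescaled over protein coding genes, RLE and upper-quartile factors, no filter, a stricter filter (5 CPM in 3 libraries), an effective length offset, a replicate block, protein coding genes only, library sizes without mitochondrial and the 10 most abundant genes, removal of the length trend (loess, span 0.5), the share of 7SL and 7SK as a covariate, each library left out in turn, and, chosen after seeing the data, pseudogene reads added to Ldhb and Mpc1.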

Additional observations from a re-analysis of the deposited data

How the results depend on the processing

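Of 634 recomputed values, 543 kept their direction and their side of the threshold, 58 lost a call or fell, 16 gained one or rose, and 17 changed sign. Counts of calls were taken as kept within 1.5 times, and ratios, which were not retested, within their pooled SD. The cause of these changes was not tested. The sign changed for Ldha with the share of 7SL and 7SK as a covariate (0.0611), for Ldhb without WT replicate 2 (range over left-out libraries -0.50 to 0.12), for Mpc1 on log2(TPM + 0.1) (-0.39), log2(TPM + 1) (-0.39) and after removal of the length trend (-0.11), for Mpc2 under the same settings (-0.33, -0.33 and -0.0178), for Bsg on log2(TPM + 0.1) and log2(TPM + 1) (-0.35 and -0.35), for Pdhb on TPM rescaled over protein coding genes (0.0041), with that covariate (0.155) and without HSA-LR replicate 1 (0.0511; range over left-out libraries -0.19 to 0.05), for Esrra on rescaled TPM (0.0388) and with that covariate (0.0491), and for the log2 ratio of Ldha to Ldhb without WT replicate 1 (0.04) or HSA-LR replicate 1 (0.26), with a range of -0.54 to 0.26. No fold change among these 17 values passed the threshold, and the ratios with a library left out had no test. On log2(TPM + 0.1) and log2(TPM + 1) the median over all genes was -0.46 and -0.28. The 10 genes called lower numbered 4 by DESeq2 and 0 to 4 with a library left out, 0 without any 1 WT library or without HSA-LR replicate 3 and 4 without HSA-LR replicate 2. Of the wider list, 1 gene was called higher under the stricter filter (Gpt) and with the 7SL and 7SK covariate (Bsg) and 0 to 1 with a library left out (Slc16a7, without HSA-LR replicate 1), while 2 were called lower on log2(TPM + 0.1) and with that covariate and 1 to 9 with a library left out (9 without HSA-LR replicate 2).

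Replicate numbers are shared by the groups and are not stated to pair the libraries. The correlations of deviations for equal numbers were 0.0005, -0.09 and 0.23, and those for unequal numbers ran from -0.17 to 0.16. With 3 libraries per group, these values cannot settle whether the libraries were paired. With a replicate block, 3 of the 10 genes were called lower, Pdk4 being added (log2FC -1.44 ± 0.22, adjusted p = 0.0166 in edgeR). Over all genes, 581 were called higher and 1016 lower, against 254 and 545 with the replicate block, 983 and 1243 by DESeq2, 253 and 489 with the effective length offset, 50 and 469 on log2(TPM + 0.1), 78 and 747 on log2(TPM + 1), 305 and 319 on TPM rescaled over protein coding genes, 326 and 758 after removal of the length trend, 362 and 573 with the 7SL and 7SK covariate, and 728 and 781 with upper-quartile factors. Leaving out a library gave 42 to 1479 higher and 124 to 1815 lower, the most without HSA-LR replicate 2. With 3 libraries per group, a p above the threshold does not show that levels were equal.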

Other observations

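Some genes of the wider and regulator lists that the naming rule leaves out, chosen after their values were seen, showed other patterns. Gpt, the cytosolic alanine transaminase, stood at 20.16, 25.24 and 23.87 CPM in WT and at 29.49, 33.56 and 29.41 CPM in HSA-LR, without overlap and uncalled (log2FC 0.42 ± 0.14, adjusted p = 0.0755 in edgeR), beside the fall of the mitochondrial form Gpt2. Pdk3, the least abundant kinase here, lay above WT in all HSA-LR libraries at 1.86 to 2.57 CPM against 1.13 to 1.49 CPM (log2FC 0.82 ± 0.35, adjusted p = 0.141 in edgeR). Hif1a also lay above WT throughout in CPM (17.7 to 21 CPM against 22.11 to 26.73 CPM, log2FC 0.33 ± 0.14, adjusted p = 0.131 in edgeR). Arnt, which encodes the partner of both HIF alpha subunits, lay below (33.38 to 37.27 CPM against 26.39 to 29.2 CPM, log2FC -0.32 ± 0.12, adjusted p = 0.105 in edgeR). The signs of Gpt and Hif1a each turned under 2 of 21 alternatives, with lowest log2 fold changes of -0.11 and -0.34.

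Pck1, which encodes the cytosolic PEP carboxykinase of glyceroneogenesis in fat, spread over the widest range of the list, with 0.50, 12.4 and 56.7 CPM in WT and 1.62, 16.2 and 247.4 CPM in HSA-LR. Hcar1, the lactate receptor of adipocytes, had the same order of libraries within each group, with 0.14, 0.99 and 2.75 CPM in WT and 0.29, 0.65 and 6.11 CPM in HSA-LR. This is also the order of the summed adipocyte markers, and neither gene was called (edgeR adjusted p = 0.587 and 0.648).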
